A study of Mus musculus with 9 samples.

Results

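Of the 6 mouse microRNAs (miRNAs) described here, 5 are called UG-rich, with uridine and guanine making up 60.9% to 91.3% of their bases. These 5, mmu-miR-574-5p, mmu-miR-1187, mmu-miR-3082-5p, mmu-miR-3097-5p and mmu-miR-670-5p, gave more signal in lungs of mice given Codonopsis pilosula than in the other lungs of the series. They were selected on that higher measured signal on the codonopsis arrays, from entries outside 4 large UG-rich families (miR-297, miR-466, miR-467, miR-669), so their codonopsis differences are a description and carry no test. The other member of the set, mmu-miR-574-3p, entered as the opposite strand of miR-574-5p and not for its own values. They are 6 of 1881 mouse miRNAs on the array, and all 6 were among the 404 that were tested because every array of at least 1 group detected them. Only 4 of them were detected on all 9 arrays. miR-3097-5p and miR-670-5p passed through the codonopsis group, where they are high, so a difference was built into their selection.

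Lung RNA of 9 mice was hybridised to Agilent arrays with 1 dye, 1 mouse to an array and 3 mice to a group. Codonopsis mice received Codonopsis pilosula, a root of traditional Chinese medicine, at 15 g per kg, and their labels give 30 days. Model mice received D-galactose and sodium nitrite, a chemical regimen that imitates ageing, and their labels give 42 days. Control mice have no treatment named. The series describes the plant as an intervention in ageing mice, but D-galactose and sodium nitrite are not named for the codonopsis mice. Strain and age are not given in the sources used here. Codonopsis 1, codonopsis 2 and control 1 were male and the other 6 mice female, so the model group has 1 sex.

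A miRNA guides the silencing complex to messenger RNAs chiefly through its seed, bases 2 to 8 from the 5′ end. Each hairpin precursor is cut into a 5p and a 3p strand, and usually 1 of them is kept. Runs of alternating uridine and guanine are also the binding sequence of CELF1 (CUGBP1), a regulator of splicing and messenger RNA decay. In human lung cancer cells, miR-574-5p is known to bind CELF1 as a decoy. miR-574-3p, rich in cytidine and adenosine, is known from human cells to bind the RNA-binding protein hnRNP L.

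The mature sequences, from RefSeq on GRCm38.p6, are shown with the seed in capitals because it decides which family a miRNA belongs to. They lie at chr5:64970328-64970350 (+) for miR-574-5p, chr5:64970364-64970385 (+) for miR-574-3p, chr5:82798964-82798986 (−) for miR-1187, chr17:25831406-25831427 (−) for miR-3082-5p, chr5:35021050-35021072 (+) for miR-3097-5p and chr2:94261358-94261379 (−) for miR-670-5p.
miR-574-5p: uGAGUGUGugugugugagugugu
miR-1187: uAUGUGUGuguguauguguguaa
miR-3082-5p: gACAGAGUgugugugucugugu
miR-3097-5p: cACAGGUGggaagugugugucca
miR-670-5p: aUCCCUGAguguauguggugaa
miR-574-3p: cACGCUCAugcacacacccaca

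No 2 of the 6 share a seed, and none shares one with any other entry of the array for which a RefSeq sequence was matched. What 4 of them share is a run in which uridine and guanine alternate. The longest such run is 13 bases in miR-574-5p, 11 in miR-1187, 10 in miR-3082-5p and 8 in miR-3097-5p, but only 4 in miR-670-5p and 2 in miR-574-3p. It starts at base 4 of miR-574-5p and base 3 of miR-1187, inside the seed, at base 7 of miR-3082-5p, overlapping the seed's end, and at base 13 of miR-3097-5p, outside it. Uridine and guanine make up 91.3% of miR-574-5p, 82.6% of miR-1187, 77.3% of miR-3082-5p, 63.6% of miR-670-5p, 60.9% of miR-3097-5p and 18.2% of miR-574-3p. Shares from 60% to under 70%, as in miR-670-5p and miR-3097-5p, were common, with 71 of the 328 tested miRNAs that have a matched sequence.

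The precursor of both miR-574 strands is shown with the mature strands in capitals, since the pair faces each other in 1 hairpin of 78 bases at chr5:64970318-64970395 (+, GRCm38.p6).
Mir574: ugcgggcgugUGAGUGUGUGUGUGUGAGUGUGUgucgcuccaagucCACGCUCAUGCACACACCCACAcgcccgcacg

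In RefSeq's gene table for GRCm38.p6, Mir574 lies within the spans of Fam114a1 and of Tlr6, which encodes a Toll-like receptor. Mir3082 lies within the spans of Jmjd8 and Stub1, a ubiquitin ligase gene, Mir3097 within that of Rgs12, a regulator of G-protein signalling, and Mir670 within its long noncoding host Mir670hg. Mir1187 lies in no annotated gene of that table, and Tecrl is its nearest coding gene. Whether each lies in an exon or an intron was not analysed here.

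Between 375 and 484 miRNAs were detected per array. Levels below are log2 scaled signals, which are background-corrected intensities divided by the array's 75th percentile. That percentile was 244.5 on control 1 and 394.2 to 538.2 on the other arrays. All codonopsis and model arrays lay on slide 1 and all control arrays on slide 2, and for comparisons with control the slide's part and the treatment's part cannot be told apart. On slide 1, codonopsis 1 and 2 lay in row 1, and codonopsis 3 and the 3 model arrays in row 2. Control 1 stood apart, with a median correlation of 0.886 with the other arrays, against 0.951 to 0.978 for the rest. The lung label was checked against markers. miR-126a-3p of endothelium and the 5 epithelial markers were detected on all 9 arrays, and the 2 brain markers on none. The liver marker miR-122-5p was detected on 3 arrays. Of the markers of striated muscle, miR-1a-3p and miR-133a-3p were detected on all 9 arrays, miR-499-5p on 2 and miR-208a-3p on 1.

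The first question is whether lungs of codonopsis mice differed from lungs of model mice, which share a slide. All 5 UG-rich miRNAs were higher in codonopsis lungs, by 1.73-fold for miR-574-5p, 1.99-fold for miR-1187 and 1.95-fold for miR-3082-5p. For miR-3097-5p and miR-670-5p, each detected on 1 of 3 model arrays, the size depends on how background is handled, and no fold is given. In each of these 5, every codonopsis array lay above every model array. Such a separation occurred in 60 of the 404 tested miRNAs, or 14.9%, and the reverse order, every codonopsis array below every model array, in 90. Since the 5 were chosen for the separation, nothing follows from their count. miR-574-3p was the exception, with overlapping groups. The median difference of the 6 was 0.98, against −0.11 over all tested miRNAs, of which 39.6% had a difference above 0. The limma test called 0 of 404 miRNAs in this comparison (0%), and 43 had an unadjusted p under 0.05. It called 35 without control 1, 4 without codonopsis 2 and 1 without codonopsis 3.

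mmu-miR-574-5p read 0.74, 0.51 and 0.97 in codonopsis lungs, against −0.19, 0.14 and −0.09 in model lungs and −0.01, −0.29 and 0.04 in control lungs. The lowest codonopsis array lay above the highest array of either other group, and model and control arrays overlapped. The group means were 0.74 ± 0.228 in codonopsis, −0.05 ± 0.17 in model and −0.08 ± 0.179 in control lungs (SD, n = 3 each). Codonopsis minus model was 0.79 (SE 0.173). On the linear scale before scaling, its signal was 807, 624 and 783 in codonopsis lungs, against 361, 466.2 and 369 in model lungs and 243, 441 and 447 in control lungs. The separation was therefore present in the intensities as deposited, where no codonopsis value fell below 624 and no other value exceeded 466.2.

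mmu-miR-1187, a strand with the run across its seed, read −0.37, −0.58 and −0.28 in codonopsis lungs, against −1.61, −1.14 and −1.47 in model lungs and −0.69, −1.48 and −1.36 in control lungs. After scaling, control 1 was the highest of the 6 other arrays and came closest to the codonopsis arrays. The means were −0.41 ± 0.155 in codonopsis, −1.41 ± 0.242 in model and −1.18 ± 0.429 in control lungs (SD, n = 3 each), and codonopsis minus model was 1.00 (SE 0.238), or 1.99-fold. In RefSeq its hairpin has only this mature strand.

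mmu-miR-3082-5p, the 5p strand of the hairpin within Jmjd8 and Stub1, followed miR-1187 almost array for array. It read 0.13, −0.08 and 0.18 in codonopsis lungs, against −1.06, −0.64 and −0.96 in model lungs and −0.13, −1.02 and −0.82 in control lungs. After scaling, control 1 again lay just under the lowest codonopsis array, while the remaining arrays of both other groups lay at −0.64 or lower. The means were 0.08 ± 0.135 in codonopsis, −0.89 ± 0.219 in model and −0.65 ± 0.467 in control lungs (SD, n = 3 each). Codonopsis minus model was 0.96 (SE 0.244), or 1.95-fold.

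mmu-miR-3097-5p, from the hairpin within Rgs12, was near the limit of detection. It read −4.69, −5.08 and −4.95 in codonopsis lungs, against −6.38, −5.49 and −6.23 in model lungs and −7.03, −6.61 and −6.38 in control lungs. It was detected on 3 codonopsis arrays, 1 model array (model 2) and 0 control arrays. In unscaled intensity these were 18.68, 12.89 and 12.97 in codonopsis lungs, 4.9, 9.4 and 5.2 in model lungs and 1.9, 5.5 and 5.2 in control lungs. Negative control spots gave a background-subtracted 1.73 to 3.04 per array, so the model and control values lay near background. The means were −4.91 ± 0.2 in codonopsis, −6.03 ± 0.476 in model and −6.67 ± 0.331 in control lungs (SD, n = 3 each), and codonopsis minus model was 1.13 (SE 0.275), or 0.92 with the floor at log2 −6.

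mmu-miR-670-5p, from the hairpin in Mir670hg, was also detected on few arrays outside the codonopsis group. It read −5.12, −5.41 and −5.49 in codonopsis lungs, against −7.10, −5.90 and −6.76 in model lungs and −6.90, −7.19 and −6.80 in control lungs. Detection again fell on 3 codonopsis arrays, on model 2 and on 0 control arrays. The means were −5.34 ± 0.193 in codonopsis, −6.59 ± 0.619 in model and −6.96 ± 0.206 in control lungs (SD, n = 3 each), and codonopsis minus model was 1.25 (SE 0.301), or 0.63 with the floor at log2 −6. Model 2 stood above the mean of the other 2 model arrays by 1.03 for this miRNA and by 0.82 for miR-3097-5p. For the 3 UG-rich miRNAs detected on all 9 arrays model 2 was also above them, by 0.28 for miR-574-5p, 0.40 for miR-1187 and 0.37 for miR-3082-5p.

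**Figure D1:**
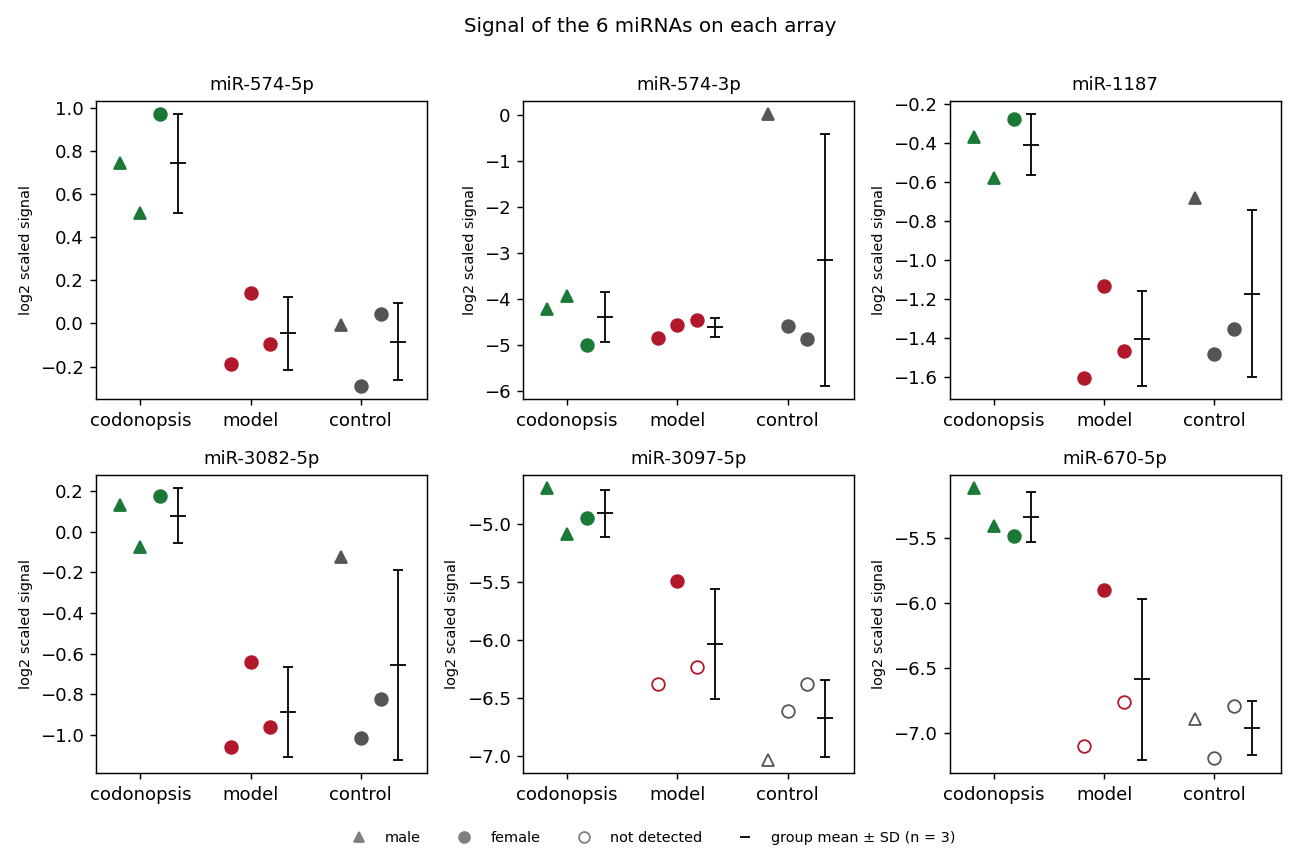
Log2 scaled signal (vertical axis) of each of the 6 miRNAs on each array, by group, with triangles for male and circles for female mice, open symbols where the miRNA was not detected, and bars for the group mean ± SD (n = 3). In 5 panels the 3 codonopsis points lie above all other points, and in the panel of miR-574-3p control 1 stands alone at 0.02 with all other arrays at −3.94 or lower.

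mmu-miR-574-3p, cut from the same precursor as miR-574-5p, behaved otherwise. It read −4.22, −3.94 and −5.00 in codonopsis lungs, against −4.84, −4.56 and −4.45 in model lungs and 0.02, −4.59 and −4.87 in control lungs. Control 1 was 4.75 on the log2 scale, or 27.0-fold, above the mean of the other 2 controls, and the remaining 8 arrays overlapped. In unscaled intensity control 1 had 248.3, against 22.4 and 14.8 on the other controls. Codonopsis minus model was 0.23 (SE 1.17), which did not pass limma's test (adjusted p = 0.916). Codonopsis 1 and 2 were above the highest model array and codonopsis 3 was below the lowest.

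With control 1 included, miR-574-3p differed by −1.24 between codonopsis and control lungs (limma adjusted p = 0.734) and by −1.47 between model and control lungs (limma adjusted p = 0.576). Without control 1 the differences were 0.34 (limma adjusted p = 0.531) and 0.11 (limma adjusted p = 0.939), so their signs rested on that array. The means ± SD were −4.39 ± 0.548 in codonopsis, −4.62 ± 0.201 in model and −3.15 ± 2.75 in control lungs (n = 3 each). For the precursor's other strand, miR-574-5p, control 1 was 0.12 above the mean of the other 2 controls.

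The opposite strands of the other hairpins gave no measurement. miR-3082-3p, miR-3097-3p and miR-670-3p were detected on 0 of 9 arrays, with background-corrected intensities of −3.004 to −1.852, −1.13 to 0.417 and −1.96 to 0.309. They were not tested.

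The second comparison sets codonopsis against control lungs, with slide differing throughout. The 5 UG-rich miRNAs again had every codonopsis array above every control array, a separation found in 23 of the 404 tested miRNAs (5.69%). This comparison uses the same codonopsis arrays that chose them. The differences were 0.83 (1.77-fold) for miR-574-5p, 0.76 (1.70-fold) for miR-1187 and 0.73 (1.66-fold) for miR-3082-5p. No fold is given for miR-3097-5p, which no control array detected and whose size depends on how background is handled. Its log2 difference was 1.77, or 1.09 with the floor at log2 −6. For miR-670-5p no fold is given, since no control array detected it and its control intensities of 2.05, 3.68 and 3.91 lay near the 2.96 to 3.04 of the negative control spots on those arrays. Its log2 difference was 1.62, or 0.66 with the floor at log2 −6. The median over the 6 was 0.80, against −0.03 over all tested miRNAs, of which 46.5% had a difference above 0. The limma test called 4 of 404 (0.990%), but 46 without control 1, 2 without codonopsis 3 and 0 without codonopsis 1, model 3 or control 2.

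The third comparison, model against control, was not used to choose the miRNAs, but it shares the model arrays with the first and the control arrays with the second. The differences were 0.04 for miR-574-5p, −0.23 for miR-1187, −0.23 for miR-3082-5p, 0.64 for miR-3097-5p and 0.37 for miR-670-5p. Without control 1 they were 0.01 for miR-1187 and 0.03 for miR-3082-5p, and without model 2 they were 0.37 for miR-3097-5p and 0.03 for miR-670-5p. For miR-574-5p they ran from −0.06 to 0.11 as each array was left out. miR-3097-5p had every model array above every control array, as did 58 of all 404 tested miRNAs (14.4%). It was detected on only 1 of these 6 arrays, and its difference was 0.17 with the floor at log2 −6, so its size is not given as a fold. For the other 5 the model and control arrays overlapped. The median of the 6 was −0.10, against 0.04 over all tested miRNAs, of which 54.5% had a difference above 0. The limma test called 0 of 404 (0%), and 47 had an unadjusted p under 0.05. For the 5 UG-rich miRNAs the order of levels was thus codonopsis above the other groups, with model and control not separated beyond their spread. For miR-3097-5p the lowest model array (−6.376) and the highest control array (−6.378) nearly met, and neither detected it.

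Sex and row on the slide coincide on slide 1, so codonopsis 3 is the array that shares both with the model arrays. It exceeded the model mean by 1.02 for miR-574-5p, 1.13 for miR-1187, 1.06 for miR-3082-5p, 1.09 for miR-3097-5p and 1.098 for miR-670-5p, and differed from it by −0.38 for miR-574-3p. For miR-574-5p, miR-1187 and miR-3082-5p this is more, and for miR-3097-5p and miR-670-5p less, than the difference over all 3 codonopsis arrays. Against the 2 female controls, codonopsis 3 differed by 1.09, 1.14, 1.095, 1.55 and 1.504 for the same 5 miRNAs in that order and by −0.27 for miR-574-3p. These values have 1 codonopsis array and no test.

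A fit of male minus female within groups, independent of the choice of miRNAs, called 0 of 404 miRNAs (0%). That count depended strongly on the scaling and on single arrays. It was 248 when arrays were scaled to a percentile of all their miRNAs, 126 with the authors' deposited log2 table and 80 with quantile normalization. It was 24 without control 2 and 20 without control 3. Without codonopsis 3 the fit compares only control 1 with the other 2 controls, so that count is not given. The 5 UG-rich miRNAs differed by −0.24 to 0.32, with limma adjusted p of 0.413 to 0.734. miR-574-3p differed by 2.84 (SE 0.747, limma adjusted p = 0.0886). Its value without control 1, which rests on the codonopsis mice alone, was 0.92. The 3 male mice include control 1.

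The number of detected miRNAs was 468, 450 and 408 on codonopsis arrays, against 389, 405 and 407 on model arrays and 484, 448 and 375 on control arrays. Codonopsis 3 was close to model 2 and model 3 in this count, and the part of the count in the differences was not tested. Of the marker lists for cell types, 2 did not overlap between codonopsis and model lungs, and both were lower in codonopsis lungs. Those of endothelium, multiciliated cells, smooth muscle, striated muscle, erythroid cells, myeloid cells, lymphocytes, liver and brain did overlap. Among all 404 tested miRNAs, 90 had every codonopsis array below every model array, so such an order was common. The summed scaled signal of the 5 epithelial markers was 8.42 to 9.37 in codonopsis lungs, against 9.41 to 11.495 in model and 7.77 to 10.2 in control lungs. That of the 2 fibroblast markers was 3.62 to 3.74 in codonopsis lungs, against 4.24 to 4.75 in model and 3.05 to 4.95 in control lungs. That of the 4 markers of striated muscle ranged from 0.334 to 6.07 in codonopsis lungs, against 1.92 to 3.60 in model and 1.80 to 2.70 in control lungs. Their part in the results was not tested, and in whole lung, fewer cells of a type and less RNA per cell cannot be told apart.

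Each miRNA was read by 30 spots on 2 or 4 probes. Both probes of miR-574-5p (0.75 and 0.86), miR-1187 (0.98 and 1.02), miR-3082-5p (0.94 and 1.01) and miR-3097-5p (1.03 and 1.25) gave a similar codonopsis minus model difference. The 4 probes of miR-670-5p ranged from 1.05 to 1.74. On all 12 of these probes every codonopsis array lay above every model array. The miRNAs were chosen on signals that these probes make up, so nothing follows from that count. The 4 probes of miR-574-3p ranged from 0.07 to 1.00 and none separated the groups, while all 4 showed control 1 above the other controls, by 4.01 to 7.11.

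**Figure D2:**
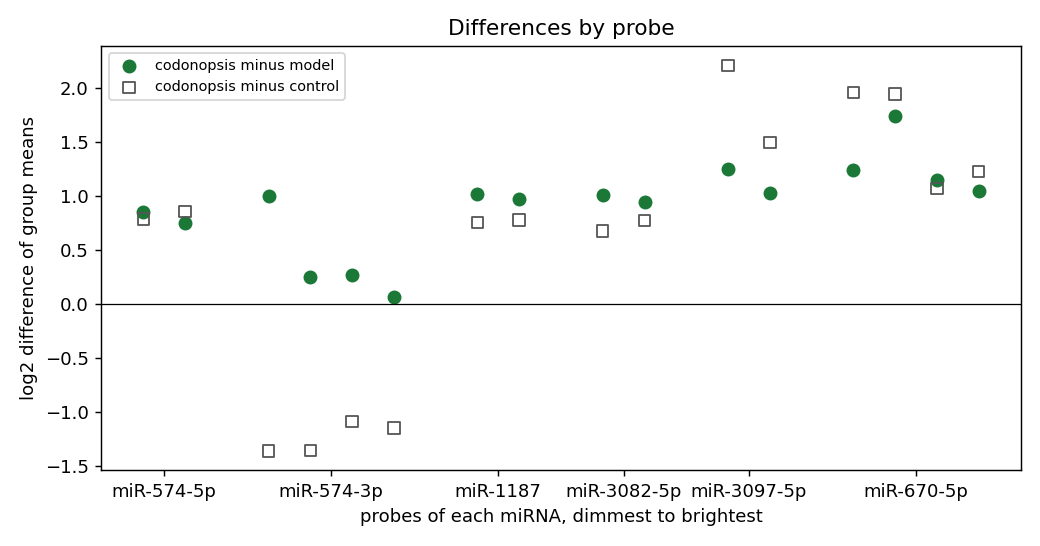
Difference of group mean log2 signals (vertical axis) for every probe of the 6 miRNAs, with codonopsis minus model as filled circles and codonopsis minus control as open squares, and each miRNA's probes set from dimmest to brightest. Probes of 1 miRNA agree in sign, the circles of the 5 UG-rich miRNAs lie between 0.75 and 1.74, and the squares of miR-574-3p all lie below 0.

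The 5 UG-rich miRNAs varied together over the 9 arrays, and all were chosen for high codonopsis values. Pearson's r over 9 arrays was 0.998 between miR-1187 and miR-3082-5p and 0.958 between miR-3097-5p and miR-670-5p, and lay between 0.65 and 0.92 for the other pairs among the 5. The lowest, 0.65, was between miR-3082-5p and miR-3097-5p. These pairs part on control 1, which stood above the other controls by 0.73 for miR-1187 and 0.79 for miR-3082-5p, but below them by 0.54 for miR-3097-5p. miR-574-3p had r between −0.44 and 0.32 with the other 5. All these values share the arrays, their scaling and their spread, and are given without a test.

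Outside the 6, the tested miRNAs most like each of them came largely from the 4 families named above, clusters of repeat-derived miRNAs with UG-rich 5p strands in mouse. For miR-574-5p they were miR-466c-5p (r = 0.914), miR-297c-5p (r = 0.906) and miR-7686-5p (r = 0.876). For miR-1187 they were miR-466j (r = 0.969), miR-1306-3p (r = 0.966) and miR-669l-5p (r = 0.961), and for miR-3082-5p the same 3 with r = 0.977, 0.971 and 0.968. For miR-3097-5p they were miR-297c-5p (r = 0.979), miR-466f-5p (r = 0.960) and miR-466a-5p (r = 0.951). For miR-670-5p they were miR-297c-5p (r = 0.960), miR-466c-5p (r = 0.921) and miR-466f-5p (r = 0.884). The profile of miR-574-3p was matched by miR-467f (r = 0.995), miR-466q (r = 0.995) and miR-669p-3p (r = 0.994), all of them high on control 1.

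Of the 30 tested entries of those 4 families, 22 are not named as 3p strands. Of these 22, 21 had a codonopsis minus model difference above 0, and the median was 0.96. Their 4 largest differences were 2.16 for miR-669a-5p, 1.71 for miR-669e-5p, 1.37 for miR-669b-5p and 1.096 for miR-669o-5p. In 17 of the 22 every codonopsis array lay above every model array. The 8 entries named as 3p strands had a median of 0.09 and 0 such separations. In them control 1 exceeded the other controls by 3.32 to 7.38, and it was high for miR-574-3p too. The 22 include miR-466q and miR-467f, whose longest runs alternate cytidine and adenosine. In these, control 1 exceeded the other controls by 4.98 and 4.45, so the excess was not confined to entries named 3p. The 2 smallest differences of the 30 were −0.42 for miR-466b-3p and −0.19 for miR-669f-3p.

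The alternating run that 4 of the miRNAs share was looked for in all tested miRNAs. A RefSeq mature sequence was matched for 328 of the 404, and for 1608 of the 1881 on the array. The motif UGUGUGU, searched on the miRNA strand itself and allowed to overlap with longer runs, was found in 10 of the 328 (3.05%) and in 11 of the 1608 (0.684%). The 10 are miR-574-5p, miR-1187, miR-3082-5p, miR-3097-5p and 6 others. The entry with the motif that was not tested is miR-466k, detected on 0 arrays. The other 6 carriers, with miR-206-3p, whose run of 7 starts with guanine, are shown with the run in capitals (RefSeq, GRCm38.p6) because they were not among the miRNAs picked.
miR-32-3p: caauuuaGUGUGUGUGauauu
miR-6348: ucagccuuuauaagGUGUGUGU
miR-672-5p: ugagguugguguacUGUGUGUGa
miR-294-3p: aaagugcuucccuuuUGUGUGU
miR-669n: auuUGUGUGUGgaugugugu
miR-466j: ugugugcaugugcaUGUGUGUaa
miR-206-3p: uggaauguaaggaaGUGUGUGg

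All 7 of these also had every codonopsis array above every model array. The codonopsis minus model difference was 1.09 for miR-32-3p, 1.13 for miR-6348, 0.64 for miR-672-5p and 0.61 for miR-294-3p, a strand of a cluster known from mouse embryonic stem cells. It was 1.06 for miR-669n, 1.05 for miR-466j and 0.89 for miR-206-3p, a strand known from skeletal muscle, which 3 were named after their values were seen. The opposite strand of miR-32-3p, miR-32-5p, was also named after its values were seen. It was dimmer, with a codonopsis mean of −6.33 against −1.63 for miR-32-3p. Its codonopsis minus model difference was −0.46, with overlapping groups. Counting all tested entries with a run of 7 or more, 11 of 11 had every codonopsis array above every model array, with a median difference of 1.00. Among the 314 entries with a run of 5 or fewer, 29 did (9.24%), with a median of −0.14. In 82 of the 314 every codonopsis array lay below every model array. With other scalings, signals and floors the counts above every model array were 7 to 11 of the 11 and 12 to 48 of the 314. Of the 11, 4 were chosen for that difference, and the remaining 7 share the arrays with them, so the counts are a description.

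Entries with a run of 6 were mixed. let-7k (0.97) and miR-5709-3p (1.09) had every codonopsis array above every model array, whereas let-7b-5p, an abundant let-7 miRNA, had every codonopsis array below every model array (−0.21). These 3 were also named after their values were seen. Among the 6 tested entries with 80% or more of these bases but a run of 5 or fewer, the median was −0.22. In 0 of them every codonopsis array lay above every model array, and in 3 every codonopsis array lay below. Over all 328 miRNAs, Spearman's correlation of the difference was 0.0151 with run length and 0.152 with the share of uridine and guanine, and 314 of the 328 have a run of 5 or fewer. miR-670-5p, with a run of 4, had a difference of 1.25, so the run is not shared by all 5.

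**Figure D3:**
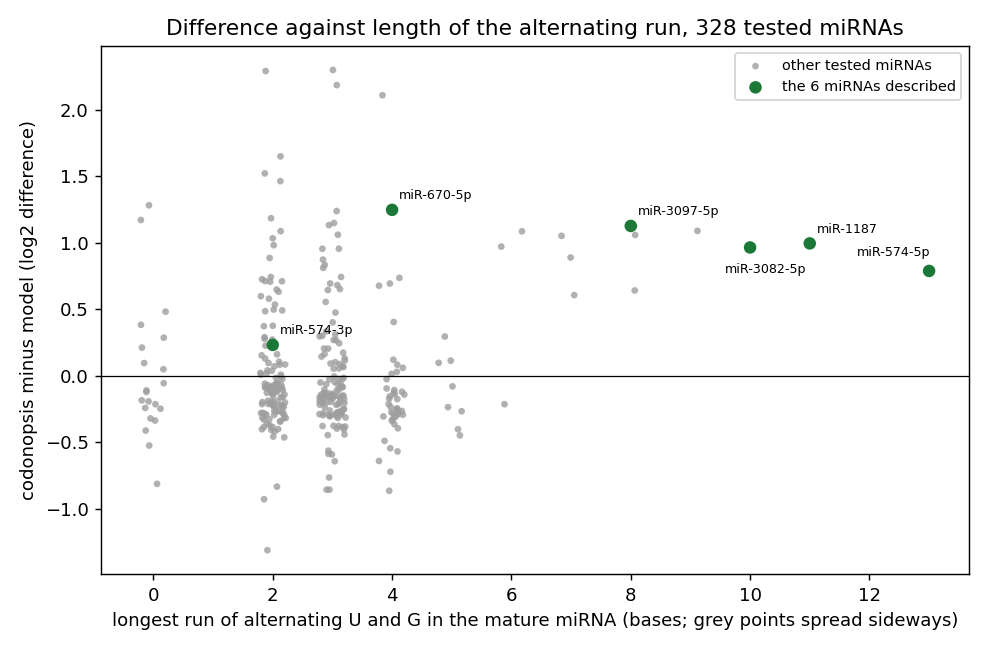
Codonopsis minus model difference on the log2 scale (vertical axis) against the longest run of alternating uridine and guanine in bases (horizontal axis) for 328 tested miRNAs, with the 6 described miRNAs in green and the others in grey, spread sideways to limit overlap. All 11 entries with a run of 7 or more lie between 0.61 and 1.13, whereas those with a run of 5 or fewer spread from −1.31 to 2.30 around a median of −0.14.

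Against control lungs the pattern was narrower. Of the 11 entries with a run of 7 or more, 4 had every codonopsis array above every control array, against 5.69% of all tested miRNAs, and these 4 were miR-574-5p, miR-1187, miR-3082-5p and miR-3097-5p. In the other 7, control 1 exceeded the mean of the other 2 controls by 1.15 to 2.01. Without control 1, all 11 of 11 lay above both remaining control arrays, and the median codonopsis minus control difference was 1.01, against 0.69 with it. Among the 314 entries with a run of 5 or fewer, 35 lay above every control array without control 1, against 7 with it. Since 4 of the 11 were chosen for high codonopsis values, these counts are a description.

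The profile of miR-574-3p had its own sequence counterpart, noticed after the values were seen. It holds a run of 7 alternating cytidine and adenosine, and 3 other tested entries hold the motif CACACAC. They are shown with that run in capitals (RefSeq, GRCm38.p6).
miR-574-3p: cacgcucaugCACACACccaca
miR-466i-3p: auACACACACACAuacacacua
miR-466q: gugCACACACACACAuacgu
miR-467f: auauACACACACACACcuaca

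In these 4, control 1 exceeded the mean of the other 2 controls by 4.45 to 5.79. Their codonopsis minus model differences were 0.23 to 0.48, with overlapping groups in each.

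**Figure D4:**
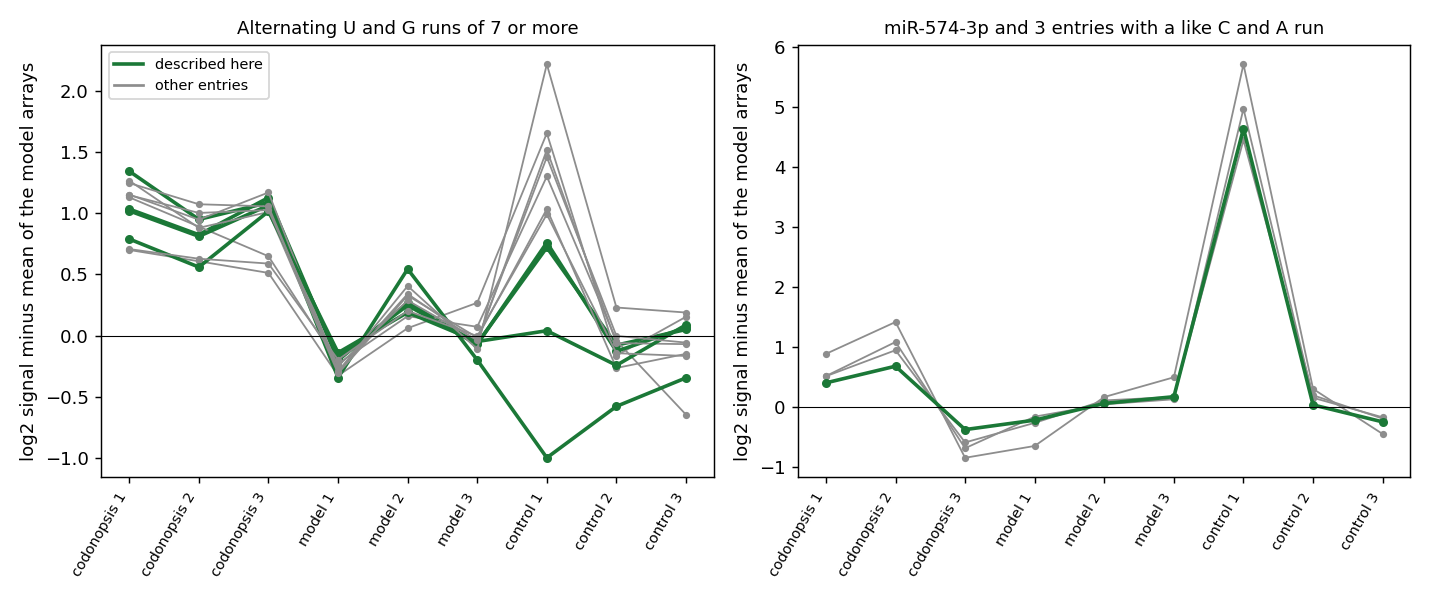
Log2 signal on each array minus the mean of the model arrays (vertical axis) for the 11 entries with an alternating run of 7 or more uridine and guanine (left) and for miR-574-3p with 3 entries holding CACACAC (right), with described miRNAs in green and others in grey. On the left every entry is high on all 3 codonopsis arrays and control 1 splits them, and on the right every entry peaks on control 1.

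The sizes depended on the handling of background for the 2 UG-rich miRNAs near background. With another background correction (normexp with an offset of 50), codonopsis minus model was 0.08 for miR-3097-5p and 0.04 for miR-670-5p, and codonopsis minus control 0.07 and 0.00. Under the same correction, 8 of the 11 entries with a run of 7 or more had every codonopsis array above every model array, with a median difference of 0.28. Of the 314 entries with a run of 5 or fewer, 12 did, with a median of −0.09. The 3 UG-rich miRNAs detected on all 9 arrays, miR-574-5p, miR-1187 and miR-3082-5p, had codonopsis minus model differences of 0.43 to 1.17 over all other scalings, signals, filters and covariates tried. For miR-574-3p the sign of the same difference turned under 4 of them.

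**Figure D5:**
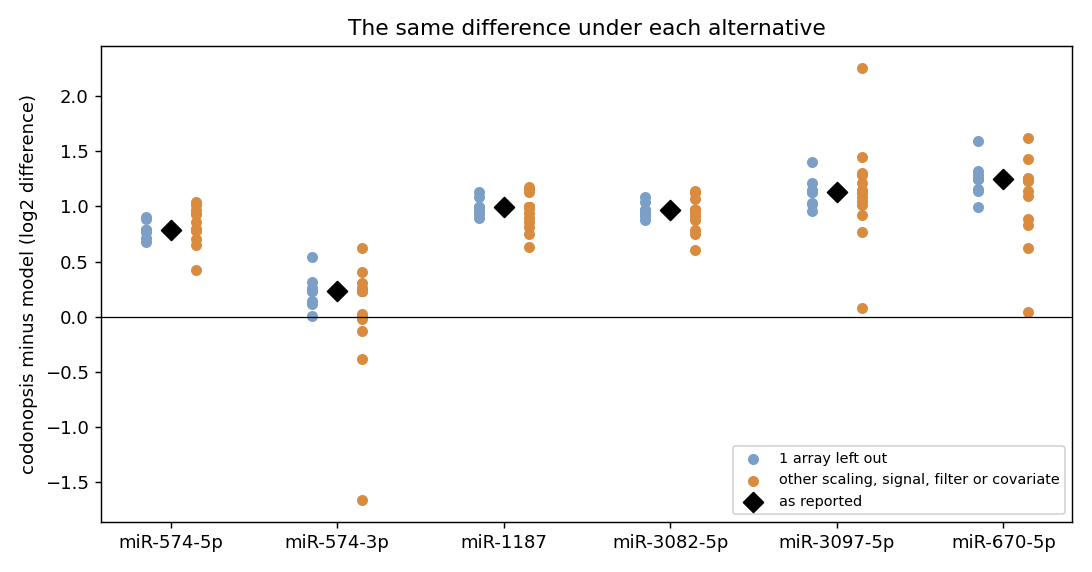
Codonopsis minus model difference on the log2 scale (vertical axis) of each miRNA as reported (black diamonds), with 1 array left out (blue) and under other scalings, signals, filters or covariates (orange). The 5 UG-rich miRNAs stay above 0 throughout, down to 0.04 for miR-670-5p, while miR-574-3p reaches −1.66.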

How the data were processed

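Per the file headers, the authors' scanner files hold linear intensity from Agilent Feature Extraction 11.5.1.1, whereas the submitters' processing notes name version 10.10. The deposited intensity used here is background-subtracted and corrected for spatial trends within an array, not scaled between arrays. The deposited value table holds log2 values, apparently quantile-normalised, and served as an alternative. Deposited flags mark detected miRNAs and outlier spots.

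Flagged spots (3.05%) were left out. Spots were averaged per probe and probes per miRNA. Arrays were scaled to their own 75th percentile among 289 miRNAs that every array detected, then floored at log2 −8 and put on the log2 scale. One limma model (3.58.1, R 4.3.3; lmFit and eBayes, two-sided, 6 residual degrees of freedom) covered all 404 tested miRNAs, with Benjamini-Hochberg adjustment over them and a threshold of 0.05. Male minus female used group as a covariate. Scripts were tested on simulated data. P-values measure the spread between these mice. The number of arrays limits the precision.

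The 6 miRNAs, the 4 families and the motif were chosen with earlier results of these data known. Beyond the 6, the miRNAs named by rule were the 3 most correlated with each, their partner strands, the 4 largest and 2 smallest differences in the 4 families, and carriers of UGUGUGU outside them. Other named miRNAs are marked in the text. Alternatives covered scaling, signal, floor, flags, filters, covariates and leaving out each array. The planned normexp correction used median in place of mean spot signals, the column the files hold. Replicates were numbered in accession order, and no pairing was used in the reported fit.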

Additional observations from a re-analysis of the deposited data

Results flagged for a closer look

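For miR-1187 and miR-3082-5p the male and female arrays lay in opposite order in 2 groups. In codonopsis lungs both males were below the female (male mean minus female −0.20 for miR-1187 and −0.15 for miR-3082-5p), whereas in control lungs the male, control 1, was above both females, by 0.73 and 0.79. The control difference exceeded the codonopsis difference by 0.93 for miR-1187 and 0.94 for miR-3082-5p. This difference was not tested, and the control side of it is 1 array, the one that correlated least with the others. Before scaling, control 1 was the lowest of the 3 controls, so their order rested on the scaling. The unscaled intensities were 152.1 against 192.4 and 169.7 for miR-1187, and 224.0 against 266.3 and 246.0 for miR-3082-5p. The 75th percentile used for scaling was 244.5 on control 1, against 538.2 and 434.4 on the other controls.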

How the results depend on the processing

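The 5 UG-rich miRNAs kept a difference above 0 in codonopsis minus model and codonopsis minus control under each alternative that gave a value. For miR-574-3p, codonopsis minus model turned to −0.13 when scaled to a percentile of the whole array (the 75th, over all miRNAs), −0.0238 under quantile normalization, −1.66 with sex and −0.38 with slide row as a covariate, and ran from 0.01 to 0.54 as each array was left out. Its codonopsis minus control ran from −2.10 to 0.34 and its model minus control from −2.34 to 0.11 as each array was left out, the high ends without control 1. Model minus control also turned: 0.34 for miR-1187 and 0.34 for miR-3082-5p (whole-array scaling), −0.0708 for miR-670-5p (quantile), −0.00591 for miR-3097-5p and −0.0417 for miR-670-5p (normexp), 0.15 for miR-1187 (deposited table) and −0.30 for miR-574-5p (slide row). Calls in codonopsis minus control, 4 as reported, were 0 with that whole-array scaling, quantile normalization, normexp, a filter of detection on 1 array or no filter, 9 with summed-signal scaling or a floor at log2 −6, 2 with all spots or slide row, and 1 with detection on all 9 arrays. They ran from 0 to 46 as each array was left out, the 46 without control 1 and 0 without codonopsis 1, model 3 or control 2. Calls in codonopsis minus model, 0 as reported, were 2 with total gene signal, 1 with the deposited table and 17 with slide 1 alone, and 0 to 35 as each array was left out, the 35 without control 1. Model minus control had 1 call with slide row and 0 as each array was left out. Of the 6 miRNAs, 5 were called for male minus female with whole-array scaling, where 248 of all 404 were called, against 0 as reported. As each array other than codonopsis 3 and control 1 was left out, 0 of the 6 were called. Without either of these the fit compares 1 mouse with 2 of a single group, so its calls are not given. That scaling moved the median of all miRNAs to −0.47 in codonopsis minus model. With it 7 of the 11 entries with a run of 7 or more had every codonopsis array above every model array, against 8 with normexp and 9 with the deposited table. The number above every control array, 4 as reported, was 2 with normexp and 9 with the deposited table. It ran from 4 to 11 as each array was left out, the 11 without control 1. In that setting 35 of the 314 entries with a run of 5 or fewer also lay above every control array. The causes were not tested, except that filters and left-out arrays change how much enters the fit. Some sample titles share a number across groups, without stating a shared animal or day. Over 8 same-numbered pairs of arrays, deviations from the group means correlated at −0.62 to 0.24, with 2 over 0.1, so the numbers were not taken to pair the arrays. A replicate block on that number, added after seeing the data, gave 0 calls in each of the 3 comparisons (30 miRNAs at an unadjusted p under 0.05 in codonopsis minus control) and 0.62 for miR-574-3p in codonopsis minus model. Signal near background limits miR-3097-5p and miR-670-5p in model and control lungs.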

Other observations

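In the authors' deposited log2 table miR-574-5p stood at 7.89, 7.57 and 8.11 in codonopsis lungs, against 6.67, 7.06 and 6.72 in model lungs and 6.72, 6.67 and 7.02 in control lungs. miR-574-3p stood at 2.68, 2.98 and 2.47 in codonopsis lungs, against 2.65, 2.63 and 2.78 in model lungs and 6.93, 2.59 and 2.55 in control lungs. The separation of the 5p strand and the single high control for the 3p strand are thus present in both sets of values.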
